A study of Mus musculus with 6 samples.

Results

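The cytosolic and mitochondrial heat shock genes described here are 10 genes taken by symbol from the 25718 rows of the expression table: Hspa1a, Hspa1b, Hspa8, Hsp90aa1, Hsp90ab1, Hsph1, Dnajb1, Hspb1, Hspd1 and Hspe1. All 10 were found, each in 1 row, and all 10 passed the filter on low counts that left 15957 genes for testing. The RNA came from primary hepatocytes, the main functional cells of the liver, with 3 libraries for each genotype, WT and S100a16KO+/-, all of mice fed alcohol. The heterozygotes carried 1 S100a16 allele that had been floxed and then deleted by EIIa-Cre, a transgene active in the early embryo, so the deletion was in the whole animal and not in hepatocytes alone. Homozygous loss was lethal per the study's methods, and in the sample labels the heterozygotes are a knockdown. All animals were males of 8 to 10 weeks on a C57BL/6 background, and both genotypes received 5 days of control liquid diet, 10 days of a 5% ethanol diet and a gavage of ethanol at 5 g/kg, with collection 9 h later. No library came from animals without ethanol, so the values compare genotypes under alcohol and not alcohol with its control.

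Heat shock proteins are chaperones that hold, fold or disaggregate other proteins. In the cytosol, J-domain proteins such as Dnajb1 pass unfolded clients to Hsp70, Hsp110 proteins such as Hsph1 exchange its nucleotide, and Hsp90 finishes the folding of kinases and steroid receptors, whereas in the mitochondrial matrix Hspd1 and Hspe1 form the Hsp60 and Hsp10 folding chamber. Their genes are textbook targets of heat shock factor 1, which binds heat shock elements made of alternating GAA and TTC units. Some members are made constantly in liver, and others are low until proteins unfold.

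The targeted gene was checked first. S100a16 was at 7.67, 8.55 and 9.07 FPKM, fragments per kilobase of transcript scaled to library size, in WT and at 3.52, 3.17 and 2.92 FPKM in S100a16KO+/-, and no library went against its label. Estimated counts summed to between 67658095 and 71807834 per library, and the 10 heat shock genes together took 0.126% to 0.146% of them. The share of counts from mitochondrial genes was highest in WT replicate 1 (21.1%) and S100a16KO+/- replicate 2 (20.1%) and was between 17.0% and 18.6% in the other 4 libraries. The summed level of 7 hepatocyte markers was 46833.6 to 48029.7 FPKM in WT and 46503.9 to 47314 FPKM in S100a16KO+/-.

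The promoter sequences are shown for the members that held the letters of a heat shock element, since these genes are usually treated as 1 set of targets. RefSeq windows from 250 bases before to 50 bases after the gene start (GRCm38.p6) were given for 7 of the 10 genes and not for Hspa8, Hsp90aa1 or Hsp90ab1. A pair of facing units, GAANNTTC or TTCNNGAA on either strand, occurred in 6 of these 7 genes (85.7%) and in 4587 of 27025 genes with a window (17.0%). A pair with a further unit on one side, overlapping the pair, occurred in 3 of the 7 (42.9%) and in 179 of all genes (0.662%). Each gene was counted, although Hspd1 and Hspe1 match in the same bases and Hspa1a and Hspa1b in identical stretches. In the stretches below, written 5′ to 3′ on the strand of the gene, capitals mark matched letters.
Hspe1, chr1:55088052-55088081, plus strand: cggtccgTTCTAGAACCTTCCGGAAggccc
Hsph1, chr5:149636280-149636309, minus strand: tgctgcagaTTCTGGAAAGTTCtcctcagt
Hspb1, chr5:135887794-135887843, plus strand: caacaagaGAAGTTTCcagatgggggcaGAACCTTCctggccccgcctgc
Hspa1a, chr17:34972207-34972286, minus strand: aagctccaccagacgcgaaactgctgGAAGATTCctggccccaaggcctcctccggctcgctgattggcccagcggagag
Hspa1b, chr17:34959289-34959368, minus strand: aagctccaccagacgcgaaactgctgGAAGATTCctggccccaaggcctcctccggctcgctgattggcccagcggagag

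The Hspe1 stretch holds 3 overlapping pairs that begin 89, 84 and 79 bases before its start. The same bases lie 144, 139 and 134 bases before 1 of 2 RefSeq starts of Hspd1 on the opposite strand, so these genes share 1 run of units. The other window of Hspd1 held no match. The longer match of Hsph1 lies after its start, and another pair of units lies before it. Hspb1 holds 2 separate pairs, 117 and 97 bases before the start. The printed stretches of Hspa1a and Hspa1b are the same in every base, and their whole windows differ at 4 of 300 bases. Neither window of Dnajb1 held a pair. A match is a description of letters, with no binding measured here.

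The heat shock genes did not move as 1 block between genotypes. In S100a16KO+/- hepatocytes Hspa8 and Hsph1 rose, Hspb1, Hspd1, Hsp90aa1 and Hspe1 fell, and Hspa1a, Hspa1b, Hsp90ab1 and Dnajb1 did not pass the test. Called genes ranged from Hspb1, at 47.2% of its WT level, to Hsph1, at 168.7%. A gene was called at an adjusted p under 0.05 in edgeR's quasi-likelihood test, with Benjamini-Hochberg adjustment over all tested genes. By this rule 6 of the 10 heat shock genes were called, against 22.8% of all tested genes. The genes were chosen with earlier results of these data known, so this share is a description and not a test of enrichment. Counted by direction, 2 rose beside a background of 11.6%, and 4 fell beside a background of 11.2%. Abundant genes were called more often in general: among genes with a mean of at least 10 FPKM the background was 46.2%, and 5 of the 6 heat shock genes at that level were called. The median log2 fold change was 0.03 over the 10 genes and 0.01 over all tested genes.

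**Figure D1:**
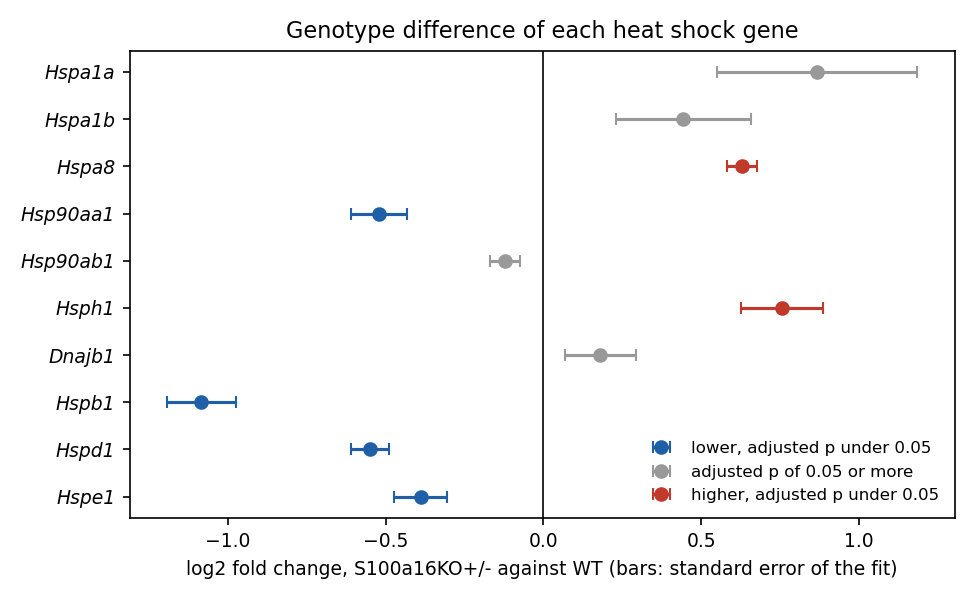
Log2 fold change of each heat shock gene, S100a16KO+/- against WT, on the x axis, with the gene on the y axis, the standard error of the edgeR fit as bars and the call as colour. Hspa8 and Hsph1 lie to the right at 0.63 and 0.75, Hspb1 lies farthest to the left at -1.08, and the widest bar is that of Hspa1a.

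The constitutive Hsp70 showed the rise with the smallest standard error. Hspa8 (Hsc70, ENSMUSG00000015656, chr9:40800984-40810087, plus strand, mm10) folds new proteins and uncoats clathrin vesicles in unstressed cells. It was at 60.8, 63.3 and 65.0 FPKM in WT and at 99.95, 93.6 and 100.6 FPKM in S100a16KO+/-. All S100a16KO+/- libraries were above all WT libraries, with a gap wider than the range of either genotype. The log2 fold change was 0.63 (SE 0.05, adjusted p = 2.11e-07). Of the 31-base words in its annotated transcripts, 44.8% also occurred in other genes, mainly the pseudogene Gm15459, which was at 1825 to 2078 counts in WT and 2888 to 3623 in S100a16KO+/-. With the counts of Gm15459 added in, the log2 fold change of Hspa8 was 0.64. Its annotated span also contains 3 small nucleolar RNA genes on the same strand.

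The stress-inducible pair, Hspa1a and Hspa1b, encodes the Hsp70 that is classically switched on by heat and protein damage, and both genes were at low levels in all libraries. Hspa1a (ENSMUSG00000091971, chr17:34969190-34972156, minus strand) was at 0.224, 0.190 and 0.166 FPKM in WT and at 0.426, 0.355 and 0.303 FPKM in S100a16KO+/-. Hspa1b (ENSMUSG00000090877, chr17:34956436-34959238, minus strand) was at 0.736, 0.570 and 0.514 FPKM in WT and at 0.803, 0.799 and 0.906 FPKM in S100a16KO+/-. Both had higher values in every S100a16KO+/- library, but neither was called: the log2 fold change was 0.87 (SE 0.32, adjusted p = 0.0648) for Hspa1a and 0.44 (SE 0.21, adjusted p = 0.163) for Hspa1b.

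These single-exon genes lie 9951 bases apart, and 70.1% of the words of Hspa1a and 68.1% of those of Hspa1b recur in other genes, mostly in each other, so a fragment could be credited to either. Counts were also low, at 38 to 96 for Hspa1a and 109 to 197 for Hspa1b, and 1 sequenced fragment was worth about 4 counts in this table. Their summed counts were 221, 166 and 147 in WT and 267, 250 and 267 in S100a16KO+/-. A further edgeR fit with the same settings was run with the counts of similar genes added together. There the summed row gave a log2 fold change of 0.56 (SE 0.19, adjusted p = 0.0423), an alternative chosen after the data were seen. Hspa1a also overlaps Gm20481, a gene on the other strand, and whether the counting used strand is not given in the sources used here.

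Hsph1 and Dnajb1 serve the Hsp70 cycle, and of the pair Hsph1 alone was called. Hsph1 (Hsp110, ENSMUSG00000029657, chr5:149614287-149636376, minus strand), the nucleotide exchange factor, was at 0.780, 1.10 and 0.763 FPKM in WT and at 1.59, 1.43 and 1.45 FPKM in S100a16KO+/-. Its genotypes did not overlap, and its log2 fold change was 0.75 (SE 0.13, adjusted p = 0.000664). None of its words occurred in another gene. Dnajb1 (Hsp40, ENSMUSG00000005483, chr8:83608193-83612653, plus strand), the J-domain partner, was at 1.73, 1.96 and 1.88 FPKM in WT and at 2.13, 1.96 and 2.25 FPKM in S100a16KO+/-. WT replicate 2 and S100a16KO+/- replicate 2 were nearly equal, and the log2 fold change was 0.18 (SE 0.11, adjusted p = 0.297).

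Of the cytosolic Hsp90 genes, Hsp90aa1 fell and Hsp90ab1 did not pass the test. Hsp90aa1 (ENSMUSG00000021270, chr12:110690605-110702728, minus strand) encodes the more inducible isoform. It was at 13.2, 13.1 and 14.8 FPKM in WT and at 10.3, 7.72 and 10.98 FPKM in S100a16KO+/-, where replicate 2 was the lowest. It fell by 0.52 on the log2 scale (SE 0.09, adjusted p = 0.00091), and without that library the log2 fold change was -0.42 and the call held. Of its words, 51.5% recurred in other genes, mainly Gm12346, with Hsp90ab1 also among them. With the counts of Gm12346 added in, the log2 fold change of Hsp90aa1 was -0.52. Hsp90ab1 (ENSMUSG00000023944, chr17:45567775-45573271, minus strand) encodes the constitutive isoform. It was at 135.4, 144.3 and 142.7 FPKM in WT and at 133.6, 126.7 and 129.3 FPKM in S100a16KO+/-, and neighbouring values of the genotypes nearly met. Its log2 fold change was -0.12 (SE 0.05, adjusted p = 0.0797). It was called without S100a16KO+/- replicate 2, with a log2 fold change of -0.15 (adjusted p = 0.0403).

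The largest fold change among the called genes was that of the small heat shock protein. Hspb1 (Hsp25 in mouse, ENSMUSG00000004951, chr5:135887919-135889563, plus strand) holds unfolded clients without ATP and binds actin. It was at 14.1, 15.0 and 12.9 FPKM in WT and at 5.98, 6.76 and 7.19 FPKM in S100a16KO+/-. The highest S100a16KO+/- library was far below the lowest WT library. The log2 fold change was -1.08 (SE 0.11, adjusted p = 4.76e-06). Hspb1 alone among the 10 met the study's own criterion, a change of 2-fold or more at an unadjusted p below 0.05, beside a background of 4.52%. It shares 55.4% of its words with other genes, chiefly the pseudogene Hsp25-ps1, which had at most 85 counts, and with that row added in the log2 fold change was -1.10.

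Both mitochondrial chaperonin genes fell. Hspd1 (Hsp60, ENSMUSG00000025980, chr1:55077835-55088243, minus strand), the barrel of the folding chamber, was at 141.2, 160.4 and 164.1 FPKM in WT and at 114.5, 91.7 and 114.0 FPKM in S100a16KO+/-. Its log2 fold change was -0.55 (SE 0.06, adjusted p = 1.11e-05). Of its words, 53.1% recurred in other genes, mainly Hspd1-ps3, and with that row added in the log2 fold change was -0.54. Hspe1 (Hsp10, ENSMUSG00000073676, chr1:55088132-55091307, plus strand), the lid, was at 43.1, 50.4 and 55.5 FPKM in WT and at 41.9, 31.6 and 41.0 FPKM in S100a16KO+/-. WT replicate 1 lay just above the S100a16KO+/- libraries for Hspe1, and the log2 fold change was -0.39 (SE 0.08, adjusted p = 0.00414). Of the words of Hspe1, 30.5% recurred in other genes, mainly AC117239.2, with Hspd1 also among them. AC117239.2 had no row here, so nothing was added in for Hspe1.

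Hspd1 and Hspe1 sit head to head on opposite strands and overlap by 112 bases, and the shared run of units printed above lies inside Hspd1 as annotated. In each genotype the library with the highest mitochondrial share, WT replicate 1 and S100a16KO+/- replicate 2, was the lowest for both genes. Without S100a16KO+/- replicate 2 the log2 fold changes were -0.49 and -0.30, and without WT replicate 1 they were -0.58 and -0.45. Without both libraries of highest mitochondrial share they were -0.52 and -0.37, and both genes were still called. On the FPKM scale S100a16KO+/- replicate 2 held the lowest value of its genotype for 8 of the 10 genes, and after TMM scaling for 4 of the 10.

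**Figure D2:**
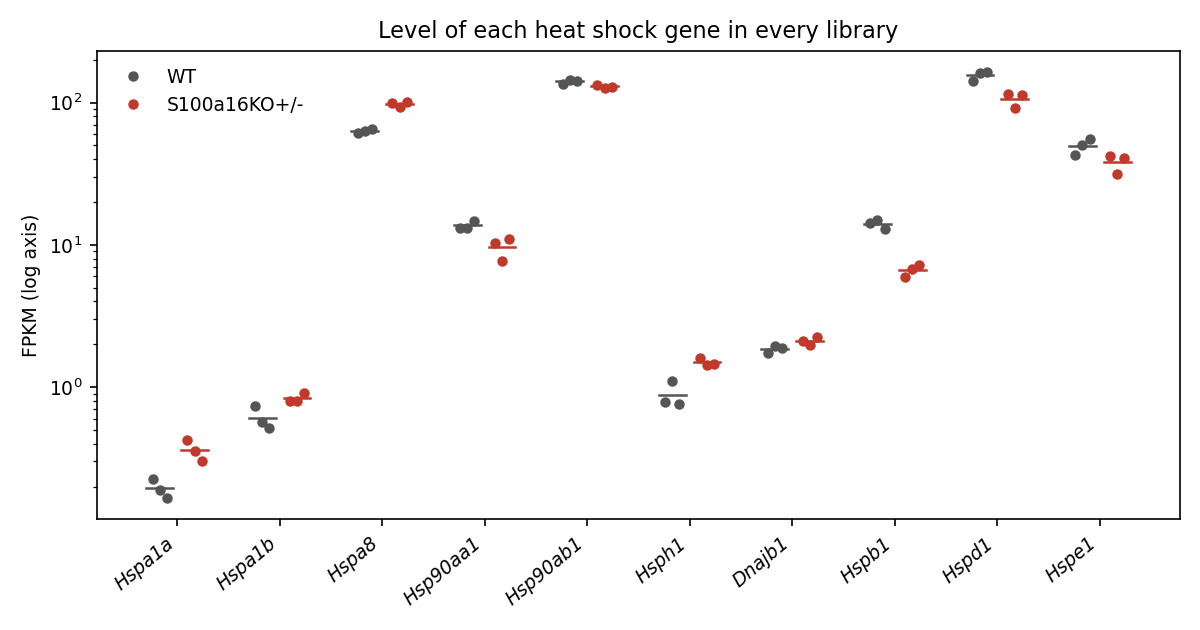
FPKM of each heat shock gene on a log y axis, 1 point per library, WT in grey and S100a16KO+/- in red, with the mean of each genotype as a short line. Levels run from 0.166 FPKM for Hspa1a to 164.1 FPKM for Hspd1, and the points of the genotypes do not overlap for any of the 10 genes.

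All 10 genes had genotypes that did not overlap in CPM, counts scaled to library size with TMM, beside 37.9% of all tested genes. For several the gap was narrow: Hspa1b was at 2.45 CPM in WT replicate 1 and at 2.47 CPM in the lowest S100a16KO+/- library. Without overlap, 6 were called and 4 were not.

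The order of levels, compared per length in FPKM, changed at the top. In WT the order was Hspd1, Hsp90ab1, Hspa8, Hspe1, Hspb1, Hsp90aa1, Dnajb1, Hsph1, Hspa1b and Hspa1a. The libraries of Hspd1 and Hsp90ab1 overlapped in WT, as did those of Hspb1 and Hsp90aa1, and all other neighbours were apart. In S100a16KO+/- Hsp90ab1 came first at 129.9 ± 3.47 FPKM (SD, n = 3), and Hspd1 at 106.7 ± 13.03 and Hspa8 at 98.0 ± 3.89 overlapped behind it. Hsp90aa1 stood above Hspb1 in S100a16KO+/-, at 9.67 ± 1.72 against 6.64 ± 0.614 FPKM.

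Ratios of FPKM within a library do not depend on how libraries are scaled, and they show whether related genes changed unequally. Ratios were compared for 6 pairs, and with 3 libraries against 3 the exact two-sided permutation test cannot go below p = 0.1. The ratio of Hsp90aa1 to Hsp90ab1 was 0.0978, 0.0907 and 0.104 in WT and 0.0772, 0.0609 and 0.0849 in S100a16KO+/-, and every S100a16KO+/- library was below every WT library. The ratio of Hspd1 to Hspe1 was 3.28, 3.18 and 2.96 in WT and 2.73, 2.90 and 2.78 in S100a16KO+/-, again without overlap. The ratio of Hspa1a plus Hspa1b to Hspa8 was 0.0158, 0.0120 and 0.0105 in WT and 0.0123, 0.0123 and 0.0120 in S100a16KO+/-. There the genotypes overlapped (exact permutation p = 0.9), and the spread over WT libraries was wider than the difference.

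Outside the 10 genes, counterparts in other compartments were set against them in the same way. The ratio of Hspa5, the Hsp70 of the endoplasmic reticulum (ER), to Hspa8 was 1.09, 1.17 and 1.19 in WT and 4.38, 3.78 and 4.26 in S100a16KO+/-. The ratio of Hsp90b1, the ER Hsp90, to Hsp90ab1 was 1.06, 1.13 and 1.14 in WT and 2.48, 2.22 and 2.54 in S100a16KO+/-. The ratio of Hspa9, the mitochondrial Hsp70, to Hspd1 was 0.644, 0.616 and 0.607 in WT and 0.767, 0.823 and 0.764 in S100a16KO+/-. For all 3 of these ratios every S100a16KO+/- library was above every WT library. For all 5 ratios whose genotypes did not overlap, the exact permutation test gave the smallest p it can, 0.1, and 0.12 after adjustment over the 6 ratios, so none passed the threshold.

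**Figure D3:**
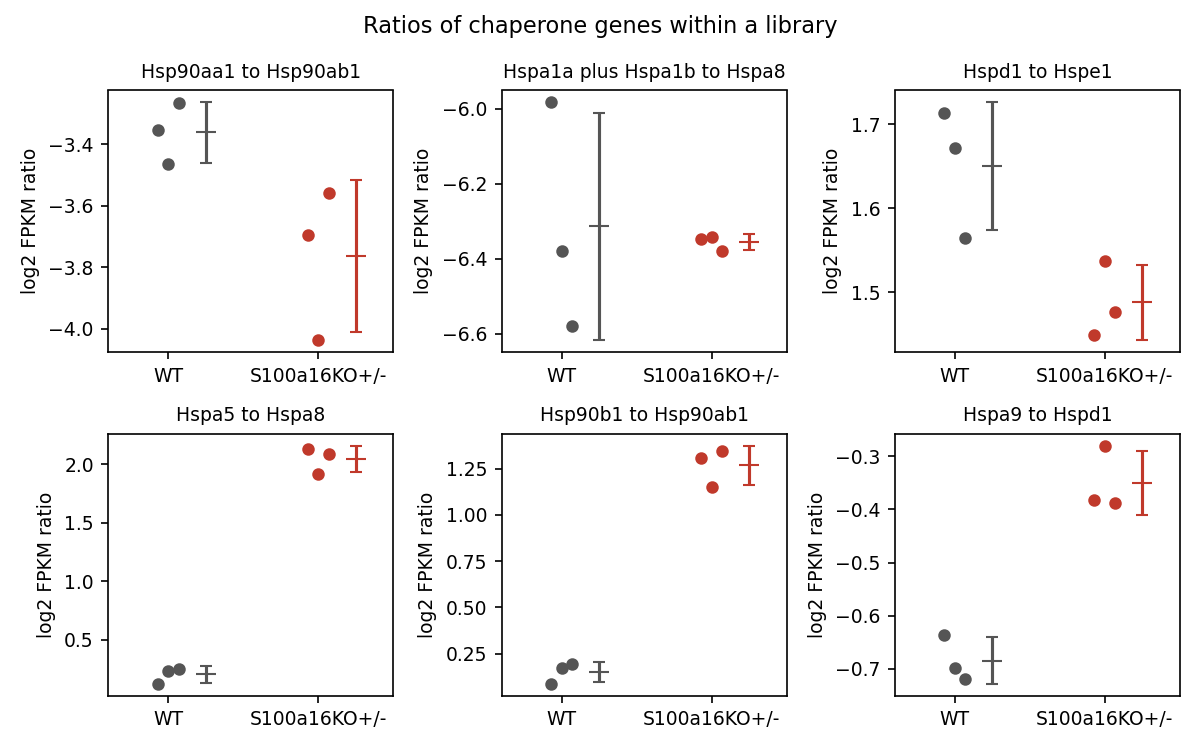
Log2 ratio of FPKM within each library for 6 pairs of chaperone genes, 1 point per library, with the mean and SD of each genotype beside the points and a separate y axis for each pair. The mean log2 ratio differed by 1.84 for Hspa5 to Hspa8 and by -0.04 for Hspa1a plus Hspa1b to Hspa8, where the points overlap.

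The wider chaperone network was counted over 8 lists of 92 genes, of which 90 were in the table and 86 were tested. Of these, 5 rose, 10 fell and 71 were not called, with a median log2 fold change of -0.01. The share called was 17.4%, below the 22.8% of all tested genes; 5.81% rose and 11.6% fell, beside 11.6% and 11.2% of all tested genes. The counts of the single lists are small, and several changed when 1 library was left out. Among genes that work with Hspa8 and Hsph1, Bag3, an Hsp70 nucleotide exchange factor of selective autophagy, rose by 0.74 on the log2 scale, and 2 of 10 exchange and helper factors (20%) rose and none fell. The other riser, Bag4, was not called without S100a16KO+/- replicate 1, and without S100a16KO+/- replicate 2 the co-chaperone Stip1 was called lower. Of 16 J-domain co-chaperones, 2 rose and 2 fell, a share of 25% that is near the background: Dnajb4 rose by 0.64 and Dnaja1, a cytosolic Hsp40, fell by 0.23. None was called lower without WT replicate 2, without WT replicate 3 or without S100a16KO+/- replicate 2, and 1 without WT replicate 1 or S100a16KO+/- replicate 1. Of 8 Hsp70 relatives, 1 rose and 1 fell, and without WT replicate 1 a second gene, Hspa12b, was called higher. The riser was Hspa13, at 2.43 ± 0.305 FPKM in WT and 6.55 ± 0.713 FPKM in S100a16KO+/- (SD, n = 3), and Hspa4l, another Hsp110 gene, fell by 0.47. The Hsp70 relatives and J-domain co-chaperones were listed by family and not by compartment, so a call there does not place a gene in the cytosol.

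The partners of the members that fell were counted next. Of 12 Hsp90 co-chaperones, 2 fell and none rose: Ahsa1, which activates the Hsp90 ATPase, fell by 0.28, and the immunophilin Fkbp4 fell by 0.22. That is 16.7% lower, beside 11.2% of all tested genes, and neither gene was called without WT replicate 3. Without WT replicate 1 or S100a16KO+/- replicate 3, 1 was lower (Ahsa1), and without S100a16KO+/- replicate 2, Unc45a was called higher. Of 4 tested small heat shock proteins, Hspb8, a partner of Bag3, fell by 0.38 and the others were not called. Of 16 mitochondrial chaperones and proteases, 4 fell and none rose: Hspa9 fell by 0.22, its exchange factors Grpel2 and Grpel1 by 0.35 and 0.17, and the protease subunit Afg3l2 by 0.19. The share that fell was 25%, beside 11.2% of all tested genes. Only Hspa9 and Grpel2 were still called lower, 2 genes, when any one library other than S100a16KO+/- replicate 2 was left out, and none was called by limma on log2 FPKM. Without S100a16KO+/- replicate 2, 5 were lower and 1, Htra2, was higher. Of 14 subunits of the cytosolic chaperonin CCT and prefoldin, edgeR called 0, with 4 at an unadjusted p under 0.05, 2 in each direction. DESeq2 and limma voom also called 0, limma on log2 FPKM called Pfdn1 lower, and Cct4 and Cct6a were called higher at a mean of at least 1 CPM and with counts divided by 4. Leaving out WT replicate 3 gave 1 call (Cct6a, higher), and leaving out S100a16KO+/- replicate 2 gave 2 (Cct4 higher and Pfdn1 lower).

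Of 6 heat shock factors and their regulators edgeR called 0, with 2 at an unadjusted p under 0.05, Hsf2 and Hsbp1, both with lower values. Hsf2 was called lower by DESeq2 and without WT replicate 1, Hsbp1 was called lower without S100a16KO+/- replicate 2, and the limma fits called 0. Hsf1, the factor of the heat shock response, had a log2 fold change of -0.05 (SE 0.12, adjusted p = 0.829) at 1.29 ± 0.0462 FPKM in WT and 1.25 ± 0.159 FPKM in S100a16KO+/- (SD, n = 3). In contrast, all 8 ER counterparts rose, beside 11.6% of all tested genes, with a median log2 fold change of 0.95. Leaving out each library gave 7 to 8 called higher, and the replicate block gave 7. That list was also chosen with earlier results of these data known. Hyou1, the Hsp110 of the ER, rose by 2.59, Hspa5 by 2.47, and Dnajb9, an ER J-domain protein, by 1.77, while Hsp90b1 rose by 0.99. None of the 6 ER counterparts with a promoter window held a pair of heat shock units, beside 17.0% of all genes with a window. With so few windows this count cannot be told apart from that share.

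**Figure D4:**
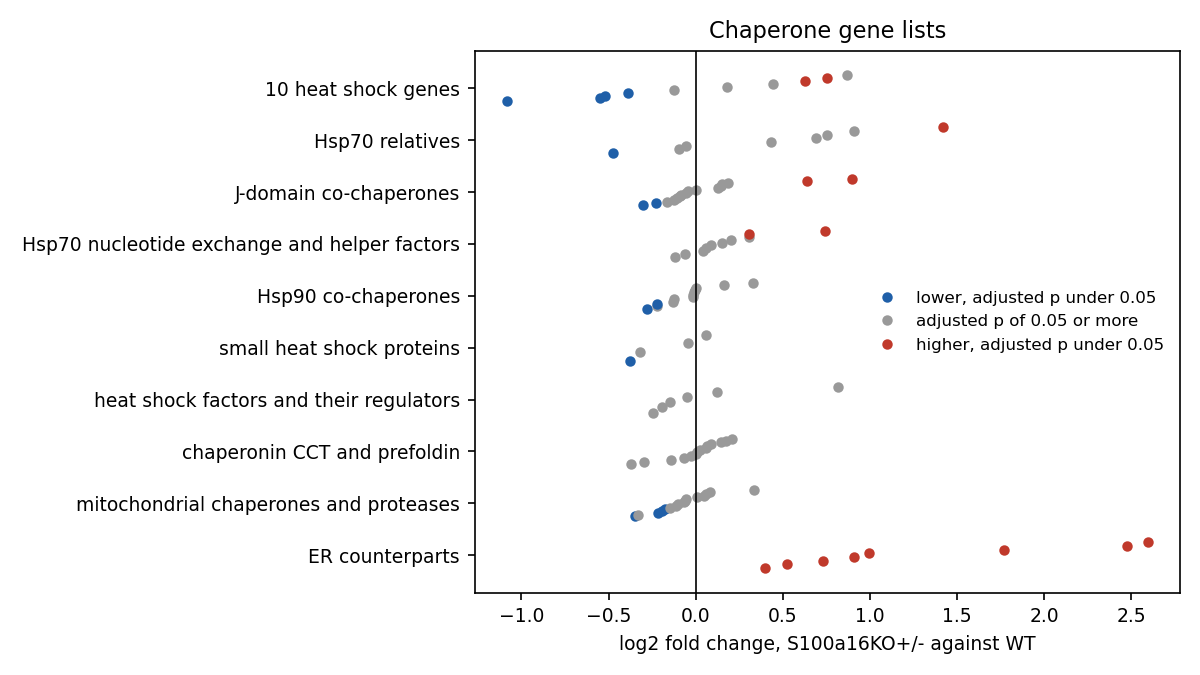
Log2 fold change on the x axis, S100a16KO+/- against WT, 1 point per tested gene, for the 10 heat shock genes, 8 chaperone lists and the ER counterparts, coloured by call. The 10 heat shock genes spread to both sides of 0, most points of the 8 lists are uncalled and near 0, and all 8 ER counterparts lie to the right.

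Markers of other cell types were counted in the same way. Over all tested genes, 11.6% rose and 11.2% fell. Of 10 endothelial markers, 9 rose and 1, Lyve1, fell, and their summed level was 54.5 to 59.3 FPKM in WT and 79.5 to 82.5 FPKM in S100a16KO+/-. Of 10 macrophage markers, 3 rose and none fell, with sums of 58.8 to 68.0 and 71.7 to 77.3 FPKM. Of 10 stellate cell markers, 4 rose and none fell, with sums of 3.93 to 4.46 and 6.62 to 6.72 FPKM. All 5 erythroid markers fell, with sums of 260.6 to 287.9 and 25.2 to 26.2 FPKM. Of 9 tested leukocyte markers, 1 fell, and of 4 tested cholangiocyte markers, 1 fell. The leukocyte and cholangiocyte counts are too small to read as a change. All 25718 genes with a row had counts in at least 1 library, so no marker with a row could be at 0 in all libraries. Of 8 listed hepatocyte markers 7 had a row, and of 7 listed erythroid markers 5 had one. The part of these cells in the changes of the heat shock genes was not tested, and in bulk RNA fewer cells of a type and less RNA per cell cannot be told apart.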

How the data were processed

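RNA of 3 WT and 3 S100a16KO+/- libraries was sequenced as read pairs after poly(A) selection and a strand-specific library with molecular identifiers. The authors deposited 1 table that gives, per gene and library, an estimated count and its FPKM. The submitters' processing notes name cutadapt 1.9, HISAT2 2.0.4, UMI-tools, StringTie 1.3.4d, DESeq2, edgeR and the build mm10, without their roles. Positions of the 10 genes equal those of GENCODE M21. Low deposited counts pile up at 4, so 1 fragment is worth about 4 of them; a count of 0 allows 3 fragments, or 12 counts, for counting error only. GO and KEGG columns were not used, and no column of values belonged to another series.

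The estimated counts were tested with edgeR 4.0.16 in R 4.3.3 (filterByExpr, TMM, robust quasi-likelihood, two-sided, genotype only). The study's methods name DESeq2, which was run as an alternative (1.42.0), with limma 3.58.1. CPM values use TMM, means carry the SD over libraries, and fold changes the standard error of the fit. Each library was taken as 1 replicate. The labels do not say that libraries came from separate animals, so p-values measure the spread between these libraries. Scripts were tested on simulated data. Shared sequence was counted as 31-base words over GENCODE M21 transcripts, and promoter windows were those of RefSeq.

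All 10 members are named, and in each list up to 3 called genes per direction with the largest change and a mean of at least 1 FPKM, with any gene a ratio uses. Genes named because another setting called them (Hspa12b, Stip1, Unc45a, Htra2, Cct4, Cct6a, Pfdn1, Hsf2 and Hsbp1), Grpel1, Hsf1 and Lyve1 were chosen after their values were seen. The members and lists were chosen with earlier results of these data known. Alternatives covered test, scaling, filter, unit, the replicate number as a block, and leaving out each library. Leaving out both libraries of highest mitochondrial share, and adding counts of similar genes, were chosen after the data were seen.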

Additional observations from a re-analysis of the deposited data

How the results depend on the processing

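No called result reversed under any alternative that was run. Hspa8, Hsph1, Hspb1, Hspd1 and Hsp90aa1 were called under all of them; Hspe1 was not called by limma on log2(FPKM + 1), with a log2 fold change of -0.37 (adjusted p = 0.0669), or on log2(FPKM + 0.1), with -0.38 (adjusted p = 0.0680). Hsp90ab1 was called by DESeq2, with a log2 fold change of -0.13 (adjusted p = 0.0414), without S100a16KO+/- replicate 2, and without both libraries of highest mitochondrial share, with -0.14 (adjusted p = 0.0313). Over its alternatives the adjusted p of Hsp90ab1 ran from 0.0313 to 0.243, and leaving out each library moved its log2 fold change between -0.147 and -0.094. The cause of these shifts was not tested. When each library was left out, members called higher stayed at 2 and members called lower ran from 4 to 5, and members meeting the study's criterion from 1 to 2, with 2 without WT replicate 1. Under limma on log2(FPKM + 1) that number was 0, and at a fold change of at least 1.5 it was 4 (Hspa1a, Hspa8, Hsph1 and Hspb1). Hspa1a is among these at an unadjusted p only. The share of all tested genes at 1.5-fold was not counted, so the 4 have no background beside them.

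Network genes called higher were 5, and 10 at a mean of at least 1 CPM, 10 with counts divided by 4, and 3 by limma on log2(FPKM + 0.1); leaving out each library gave 5 to 8, with 8 without S100a16KO+/- replicate 2. Those called lower were 10, and 3 and 2 by limma with the pseudocounts 1 and 0.1; leaving out each library gave 4 to 12, with 6 without WT replicate 2 and 4 without WT replicate 3. By list, limma on log2(FPKM + 1) and log2(FPKM + 0.1) called 0 mitochondrial and 0 J-domain genes lower, from 4 and 2, and 1 and 0 Hsp90 co-chaperones lower, from 2. With the replicate block 2 mitochondrial genes and 1 J-domain gene were lower. Htra2 and Unc45a were called higher at a mean of at least 1 CPM and with counts divided by 4. Members with a match numbered 6 for a pair of units and 3 for 3 units. With the replicate block 2 members were called higher and 4 lower, and calls over all genes went from 3643 to 3082; they were 2228 and 2208 under limma on log2(FPKM + 1) and log2(FPKM + 0.1), over fewer genes. Libraries of the same number did not deviate together (correlations -0.05, -0.02 and 0.05), so the numbers were not taken as pairs. At about 4 counts per fragment, Hspa1a rests on few fragments in every library, which limits what could be detected for it.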

Other observations

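Cold-inducible RNA-binding proteins, which respond to temperature in the direction opposite to heat shock genes, were listed beside them. Both rose, beside 11.6% of all tested genes, and with 2 genes in the list this is a description only. The list was chosen with earlier results of these data known, and a part of temperature was not tested. Cirbp was at 5.97 ± 0.557 FPKM in WT and 9.98 ± 1.31 FPKM in S100a16KO+/- (SD, n = 3), with a log2 fold change of 0.73 (SE 0.08, edgeR adjusted p = 1.66e-05). Rbm3 was at 5.76 ± 0.312 and 7.39 ± 0.794 FPKM, with a log2 fold change of 0.35 (SE 0.07, edgeR adjusted p = 0.00137).

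Of 17 immediate early genes, which answer cell stress and isolation within minutes, 6 rose and 4 fell (35.3% and 23.5%), beside 11.6% and 11.2% of all tested genes, with a median log2 fold change of 0.05. Nr4a1, an orphan nuclear receptor, rose by 2.25, Socs3, an inhibitor of cytokine signalling, by 1.43 and Fosb by 1.12. Atf3, a stress transcription factor, fell by 1.60 on the log2 scale, from 6.95 ± 0.985 to 2.30 ± 0.526 FPKM (SD, n = 3), and Dusp1, a MAP kinase phosphatase, fell by 0.46. Like the 10 heat shock genes, the early genes moved to both sides, and their part in the changes of the heat shock genes was not tested.

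The 5 genes most like the mean of the scaled heat shock genes over the 6 libraries were Atp6v1f (r = 0.90), Urad (0.89), Arf5 (0.85), Rpl38 (0.84) and Rtcb (0.84). These are descriptions over 6 libraries that share scaling, and the mean itself, over genes that moved to both sides, lay between -0.10 and 0.11 SD units in all libraries.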
